A study of Mus musculus with 2 samples.

Results

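The microRNA genes with symbols from Mir6896 to Mir7094, a late-numbered block of mouse annotation, were examined in newborn mouse kidney. They were taken by symbol alone: every row of the count tables whose Ensembl identifier carries such a symbol in GENCODE release M21, whatever its suffix. This gave 178 of 1973 microRNA genes, all with the same identifier version in the tables and in that release, and 23 further genes of the range were not analysed here. Small RNA was sequenced from whole kidney of B6NCrl mice at postnatal day 0. The 2 samples are 2 pups of the same pregnancy, pup 1 and pup 2, each with its 2 kidneys pooled, with no treatment named in the labels and with sex not collected. They form 1 group, so the data hold comparisons between genes and between the pups, and none between conditions.

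By annotation, most members were microRNAs of intron ends. The 3′ end of the annotated hairpin lay at the splice acceptor of a host gene in 165 of 178 members, but both hairpin ends lay at intron ends in only 15. Nearly all members that were detected had only a few counts. A count in both pups was found for 67 members (37.6%), beside 26.7% of all 1973 genes. Among genes whose hairpin shares no 22 bases with another, it was found for 38.3% of members and 43.8% of all. The 178 members together held 0.0065% ± 0.00047 of counts (SD, n = 2 pups). The highest, Mir7083, had 5.61 ± 1.63 CPM, which are counts scaled to a sum of 1000000 over all named genes.

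A mirtron is a microRNA precursor that is itself a short intron. Splicing, in place of the nuclear enzyme Drosha, sets the ends of the hairpin, and after the lariat is opened the folded intron is exported and cut by Dicer into a 5p and a 3p arm. In a 5′-tailed mirtron the splice acceptor sets the 3′ end of the hairpin, and the intron sequence upstream of it has to be trimmed away. Introns begin with GU and end with AG behind a stretch rich in pyrimidines, so a microRNA cut at the acceptor carries those letters at its own end.

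Both forms are shown here by the highest member of each, with hairpins from RefSeq on GRCm38.p6, the assembly of mm10, written 5′ to 3′. Capitals mark the donor GU and the acceptor AG where the hairpin end is the intron end. Mir6944 is the whole intron, and Mir7083 is the end of a longer one.
Mir6944, chr13:55477681-55477776, minus strand: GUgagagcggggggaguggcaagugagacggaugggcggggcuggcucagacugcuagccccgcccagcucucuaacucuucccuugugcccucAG
Mir7083, chr9:21809941-21810000, minus strand: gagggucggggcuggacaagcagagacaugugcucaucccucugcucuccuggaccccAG

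The mature arms of the 6 most abundant members with mature sequences in that table follow, to show the base composition of the arms. In 5 of the 6 the 5p arm is the richer in G, and in Mir6900 the 3p arm is, with 38.1% G against 33.3%. Capitals mark the seed, bases 2 to 8 from the 5′ end, which pairs with target RNAs. All 6 of these 3p arms end in AG.
mmu-miR-7083-5p: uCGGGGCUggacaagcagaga
mmu-miR-7083-3p: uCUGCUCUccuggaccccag
mmu-miR-6944-5p: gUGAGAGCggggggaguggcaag
mmu-miR-6944-3p: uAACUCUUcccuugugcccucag
mmu-miR-6900-5p: uGCCAGGAgaagccuagagccguc
mmu-miR-6900-3p: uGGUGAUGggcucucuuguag
mmu-miR-6975-5p: gCUGGGGAgaaagggguuuggca
mmu-miR-6975-3p: uCUCUCCUuucuccuccuag
mmu-miR-6897-5p: uGGGGGCAgugucacacgcuguu
mmu-miR-6897-3p: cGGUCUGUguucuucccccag
mmu-miR-7059-5p: aCCGGGGAcugcggcuuucagu
mmu-miR-7059-3p: uGUUUGCUguuuguccucccag

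Whole-kidney character was checked first. The 4 listed epithelial genes, Mir200a, Mir200b, Mir200c and Mir429, summed to 30882 CPM in pup 1 and 31015 in pup 2. The neural genes with a row in the tables summed to 1.54 and 2.08 CPM, with Mir124a-1, Mir124a-2 and Mir124a-3 at 0. The listed blood genes summed to 557 and 376 CPM and the liver gene had 56.9 and 44.2, so neither was near 0 and both were lower in pup 2. Their part in the members' levels was not tested. CPM was taken from counts on the strand of the gene, whose totals were 5832192 in pup 1 and 3846704 in pup 2. A single count was therefore worth 0.171 CPM in pup 1 and 0.26 in pup 2. A count of 0 allowed up to 3 counts, 0.514 and 0.78 CPM, as a one-sided 95% limit. The two-sided 95% exact Poisson intervals used below reach 0.633 and 0.959 CPM for a count of 0. These floors and the intervals below cover counting error alone, since PCR copies were not told apart by molecular identifiers. The tables count whole hairpins, and neither the arm nor the position of a read is known. CPM is given per hairpin and not per base, and the yield of reads per molecule can differ between microRNAs. In whole kidney, fewer cells of a type and less RNA per cell cannot be told apart.

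The place of the members in their host genes came from the annotation, not from reads. An intron on the same strand covered at least 80% of the hairpin in 177 members, and the shortest such intron was used. In 164 members the last base of the hairpin was exactly the last base of that intron, and in 18 the first base of the hairpin was its first. Within a tolerance of 5 bases, 165 members (92.7%) ended at an acceptor, against 37 of 1716 other matched microRNA genes (2.16%). Only 692 of these 1716 had such an intron at all, so the 2.16% also counts genes outside introns. By these ends the members fell into 150 with the 3′ end alone at the intron end, 15 with both ends, 4 with the 5′ end alone, 8 inside the intron or across its end, and 1 in an exon.

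By annotated ends alone, the label of mirtron held for these genes mostly in the tailed sense. Whether splicing forms these hairpins in kidney was not tested. Introns ran from 66 to 36269 bases, with a median of 412 and quartiles of 109 and 1139. Short introns of at most 150 bases held 60 members (33.7%), against 27 of the other matched genes (1.57%), of which 692 lay in an intron. Among the 150 members with the 3′ end alone at the intron end, the stretch from the donor to the hairpin had a median of 419.5 bases. It was at most 30 bases in 25 of them and over 1000 bases in 44. The longest, 36205 bases, belonged to Mir6899 in Klf7, a transcription factor gene.

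**Figure D1:**
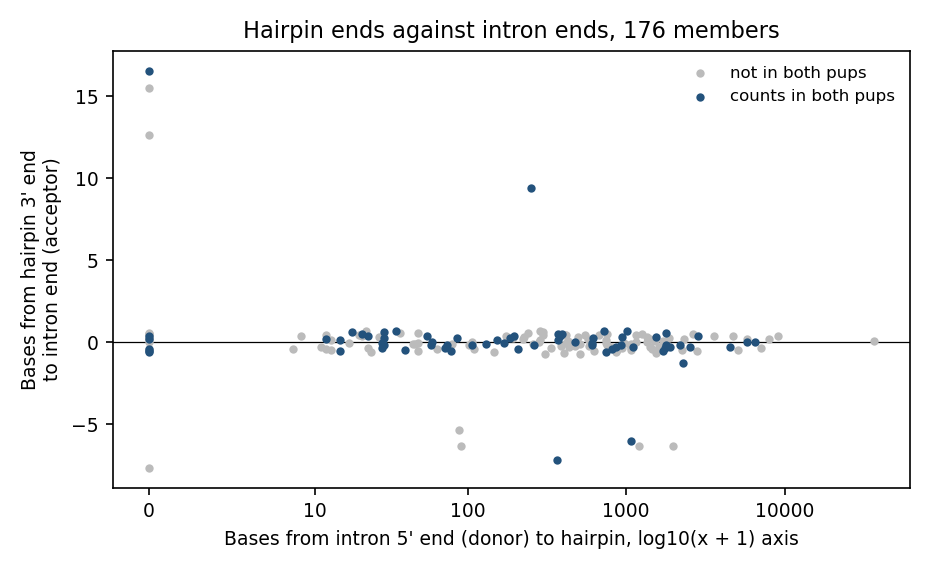
Distance from the intron's 5′ end to the hairpin (horizontal, bases, log10(x + 1) axis) and from the hairpin's 3′ end to the intron's 3′ end (vertical, bases, spread by a small random shift) for 176 members, without Mir7025 in an exon and Mir7036b far inside an intron. A start upstream of the donor is drawn at 0. The points form a line at an acceptor distance of 0, with 15 members at both intron ends on its left and tails up to 36205 bases on its right.

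The 15 members with both ends at intron ends were few and mostly near 0. Their introns had a median of 83 bases, and they held 28 counts in pup 1 and 29 in pup 2. Mir6944, in an intron of 96 bases of Dbn1, the gene of the actin-binding protein drebrin, took 20 and 16 of these. No other of the 15 passed 4 counts in a pup. Mir7070 in Fbxw9 had 2 counts in each pup, Mir7068 in Cherp 1 and 3, Mir7018 in Hspg2, which encodes the basement membrane protein perlecan, 1 and 1, and Mir6981 in Arap3 2 and 1. Counts in both pups were found for these 5 of 15 members (33.3%), beside 57 of 150 members with the 3′ end alone at the intron end (38.0%). The smaller classes had 1 of 4, 3 of 8 and 1 of 1.

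Of the 4 members with the 5′ end alone at the donor, Mir6927 in Mllt6 had 3 and 1 counts. The 8 members inside an intron or across its end include 6 whose hairpin runs 6 to 7 bases into the next exon, as Mir6903 in Atp2b4 (1 and 3 counts) and Mir6901 in Sned1 (4 and 0). The single exonic member, Mir7025 (chr5:75176831-75176904), lies in an exon of Pdgfra, the receptor gene for platelet-derived growth factor known from interstitial cells, and had 4 and 2 counts.

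The introns lay between coding exons in 160 members, in 5′ untranslated parts in 7, in 3′ untranslated parts in 8 and in transcripts without a coding region in 2, judged in the transcript with the most exons among those with that intron. An exon of another transcript covered at least 80% of the hairpin in 29 of the 177, of which 13 (44.8%) had counts in both pups. Of the 148 without such an exon, 53 (35.8%) did. These shares are descriptions of genes with few counts, and reads of an exon and of a hairpin at the same place are not separated in the tables.

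Only 4 host genes held more than 1 member. Skiv2l, an RNA helicase gene of the Ski complex, holds Mir6971 with 16 and 17 counts and Mir6970 with 0 and 1. Mir6971 is the end of an intron of 135 bases, and Mir6970 is a whole intron of 67 bases that shares 22 bases with another hairpin, so reads of it can match more than 1 place. Arap3, Cmip and Srebf1 held a pair each, with at most 2 counts per pup in Mir6980, Mir6981, Mir7077, Mir7078, Mir6921 and Mir6922. Only Mir6970, Mir7065 and Mir7094-2 among the 178 share 22 bases with another hairpin.

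Hairpin features came from the 161 members with a hairpin in the RefSeq table, beside 708 other microRNA genes of the tables with one. The hairpin ended in AG in 149 members (92.5%) and in 62 others (8.76%). It began with GU in 27 members (16.8%) and in 48 others (6.78%). The member hairpins were shorter, with a median of 66 bases against 84 over these others, and richer in G and C, at 57.7% against 50.6%. Their predicted folding energy per base (RNAfold) had a median of -0.399 kcal/mol, against -0.417 in the others, with overlapping quartiles of -0.443 to -0.357 and -0.474 to -0.354.

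Mature arms were listed for 163 members, and their base composition differed between the arms more than in other genes. G made up a median of 45.5% of bases in 157 mature 5p arms of members and 14.3% in 155 mature 3p arms, against 27.3% and 22.7% in 461 and 467 arms of other genes. C and U together made up 71.4% of the 3p arms and 31.8% of the 5p arms, against 54.5% and 50.0% in the others. In all 149 members with both arms listed the 3p arm held at least as large a share of C and U. In Mir6936 the shares were equal, at 57.1%. In 144 the 5p arm held the larger share of G. Among 434 other genes the 3p arm was counted as the richer in C and U in 238, with ties not separated. The 5p arm was the richer in G in 261 of them. The 3p arm ended on the last base of the intron in 119 of 155 members, and 121 ended in AG (78.1%), 108 of them in CAG and 11 in UAG. Among other genes 53 of 467 3p arms ended in AG (11.3%). The 5p arm began on the first base of the intron in 15 of 157.

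**Figure D2:**
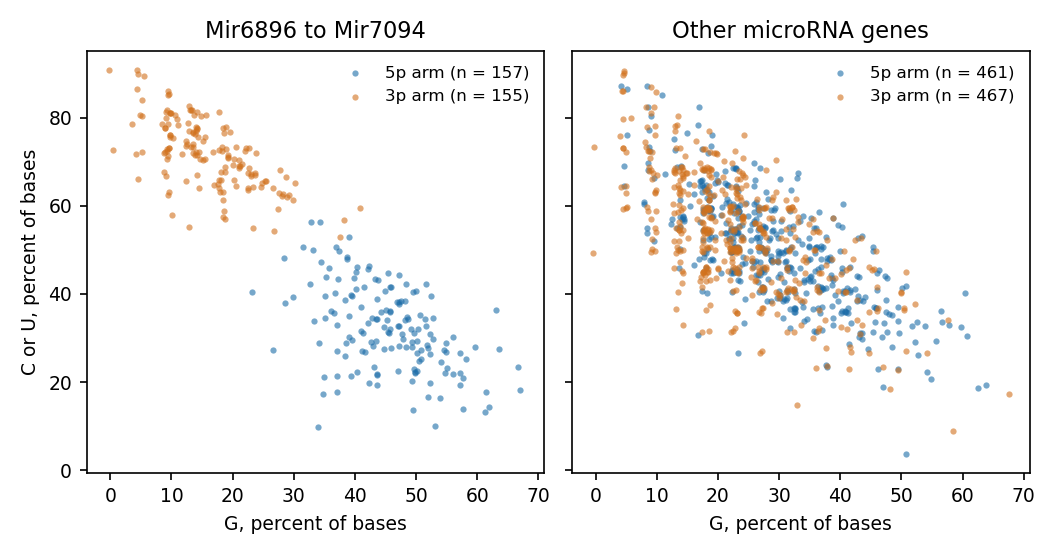
Share of G (horizontal, percent of bases) and of C plus U (vertical, percent of bases) in each mature arm, for Mir6896 to Mir7094 at left and for the other microRNA genes at right, with a small random shift to separate equal values. In the members the 5p arms (median G 45.5%) and 3p arms (median G 14.3%) form groups that lie largely apart, while in the other genes they cover the same area.

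The 312 mature arms of the members carried 287 different seeds. A seed was shared by 3 members in 4 cases and by 2 members in 17. Of these 21 shared seeds, 16 were shared between 5p arms and 5 between 3p arms. The seeds shared by 3 members are printed because such arms could pair with the same target sites.
mmu-miR-7018-3p: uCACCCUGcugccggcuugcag
mmu-miR-7023-3p: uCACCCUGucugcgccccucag
mmu-miR-7068-3p: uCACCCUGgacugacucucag
mmu-miR-6911-5p: uGGGCUGAgugggucuguggcau
mmu-miR-7028-5p: uGGGCUGAggcuugggucaggag
mmu-miR-7079-5p: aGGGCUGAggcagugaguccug
mmu-miR-7030-5p: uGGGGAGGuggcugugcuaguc
mmu-miR-7075-5p: cGGGGAGGaggacaugguuuu
mmu-miR-7076-5p: aGGGGAGGugguauggucuca
mmu-miR-6922-5p: uGUGGGAGgggacuguagagagg
mmu-miR-6993-5p: aGUGGGAGaaacgggugucuguc
mmu-miR-7008-5p: uGUGGGAGaugccaggagccguac

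The highest counts among these 12 genes were those of Mir7075, 8 and 2. Mir7023, Mir7028 and Mir7076 had 0 in both pups, and Mir7030 had 1 and 0.

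Detection of the members was broad and shallow. In pup 1, 107 of 178 members had a count, and in pup 2, the less deeply sequenced library, 87. A count in both pups was found for 67 members (37.6%), beside a background of 26.7% over all 1973 genes. In 1 pup alone, 60 members had counts, 40 in pup 1 and 20 in pup 2, and 36 of these 60 rested on a single read. The remaining 51 members (28.7%) had 0 counts in both, against 64.7% of all genes.

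The rank of these shares turned on which genes they were set beside. Many microRNA genes repeat, and a read that fits several places is listed apart from gene counts. Among genes whose hairpin shares no 22 bases with another, counts in both pups were found for 67 of 175 members (38.3%) and for 448 of 1023 genes in all (43.8%). By number in the symbol, the share for such genes was 76.8% from Mir1 to Mir999, 36.5% from Mir1000 to Mir6895 and 34.5% from Mir7095 on. A count in at least 1 pup was found for 72.0% of such members, against 83.6%, 48.7% and 58.3% in these ranges.

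**Figure D3:**
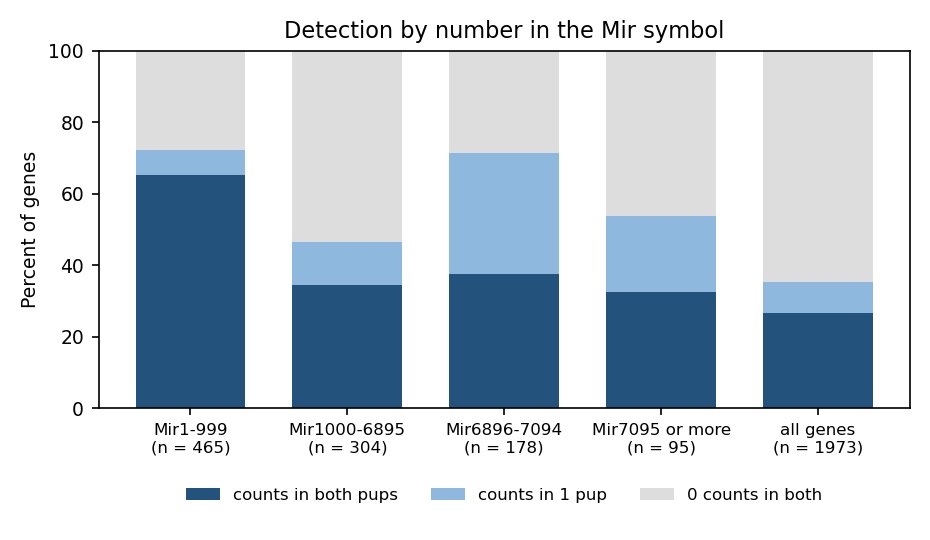
Percent of genes (vertical) with counts in both pups, in 1 pup and in neither, by the number in the Mir symbol, with the number of genes under each bar. The members (67 in both, 60 in 1 pup and 51 in neither) have the largest part with counts in a single pup.

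At a higher limit the order was different. A level of at least 1 CPM in both pups was reached by 8 members (4.49%), beside a background of 18.2% over all genes, and by 58.9%, 18.1% and 9.47% of all genes in the other 3 number ranges. No member reached 10 CPM in both pups, while 246 genes did. Members with counts in both pups had a median of 0.561 CPM, against 8.06 over all genes so detected and 1.34 and 0.904 in the ranges just before and after. All members together had 360 counts in pup 1 and 263 in pup 2, 61.7 CPM (95% Wilson interval 55.7 to 68.4) and 68.4 CPM (60.6 to 77.1), and the intervals overlapped. The 95 genes from Mir7095 on summed to 69.3 ± 0.0986 CPM and the 304 from Mir1000 to Mir6895 to 1307 ± 36.4.

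**Figure D4:**
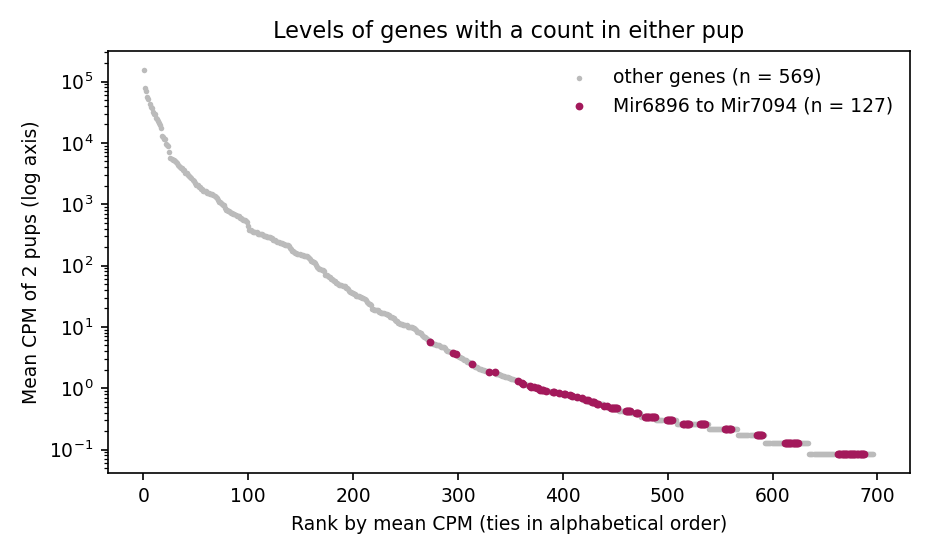
Mean CPM of the 2 pups (vertical, log axis) against rank (horizontal) for the 696 genes with a count in either pup, 127 of them members. The members begin at rank 273 with Mir7083 at 5.61 CPM and lie among other genes down to the low end. Steps there mark levels of a few counts.

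Mir7083 stood highest, at rank 273 of 1973, with 26 counts in each pup, which is 4.46 CPM in pup 1 (95% exact Poisson interval 2.91 to 6.53) and 6.76 in pup 2 (4.42 to 9.90). It lies at the end of intron 39 of 49 of Dock6, 1773 bases from the donor. Its counts were equal in both libraries although pup 2 was sequenced less deeply, and the intervals overlapped.

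Mir6944 (rank 295) followed with 20 and 16 counts, 3.43 and 4.16 CPM, or 3.79 ± 0.516 (SD, n = 2 pups). It is intron 9 of 14 of Dbn1 and the only member with both ends at intron ends among the 25 highest. Mir6971 in Skiv2l (chr17:34841809-34841871) came next with 16 and 17 counts and 3.58 ± 1.19 CPM. These 3 were the only members with at least 10 counts in both pups, and their intervals overlapped within each pup. Mir7083 was the highest of them in both pups, while Mir6944 and Mir6971 changed places between the pups. Their order was not tested.

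Mir6900, at the end of an intron of 2898 bases of Ndufa10, a subunit gene of respiratory complex I, had 8 and 14 counts, 1.37 and 3.64 CPM. Its relative difference between the pups was the largest of these 4. Mir6975 in Ddx39b, an RNA helicase gene of splicing and mRNA export, had 11 and 7 counts and 1.85 ± 0.0469 CPM. Mir6897, in the last of 40 introns of Uggt1, the folding sensor of glycoproteins in the endoplasmic reticulum, had 12 and 6 counts and 1.81 ± 0.352 CPM. With these 6 members the levels above 1.5 CPM end.

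The levels then fell off in small steps without a gap. Mir7059 in Cln3, a lysosomal membrane protein gene, had 6 counts in each pup (1.29 ± 0.375 CPM). Mir7063 in Ap2a2, a subunit of the clathrin adaptor, had 5 and 6 counts. Mir7069 in Farsa, a subunit gene of phenylalanyl-tRNA synthetase, had 8 and 3, and Mir6956 in Triobp, which encodes an actin-binding protein, 3 and 6. Mir7026, in the last of 51 introns of the chromatin remodeller gene Ep400, had 6 and 4 counts, or 1.03 ± 0.00783 CPM. An SD this small does not exceed counting error, since 4 counts alone span 0.283 to 2.66 CPM in pup 2.

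Below about 1 CPM, members 13 to 25 of the ranking had between 2 and 8 counts per pup. They were Mir6934 in Tbc1d16, Mir7016 in Tmem39b, Mir6946 in Sec24c, a coat protein gene of vesicles leaving the endoplasmic reticulum, and Mir6951 in Azin1, the antizyme inhibitor gene of polyamine metabolism. Mir7075 lies in the first intron of Terf2, a telomere-binding protein gene, Mir6954 in Mroh1, Mir6960 in Troap, and Mir7019 in Pink1, the mitochondrial kinase gene. Mir7035 in Rasa4, Mir6966 in Narfl, Mir7064 in Cars, the cysteinyl-tRNA synthetase gene, Mir6988 in Syvn1, a ubiquitin ligase gene of the endoplasmic reticulum, and Mir7051 in Etfb completed them. The lowest of these, Mir7051, had 4 and 3 counts and 0.733 ± 0.0665 CPM. Every one of their intervals overlapped between the pups, and neighbours in this order do not differ beyond their spread.

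**Figure D5:**
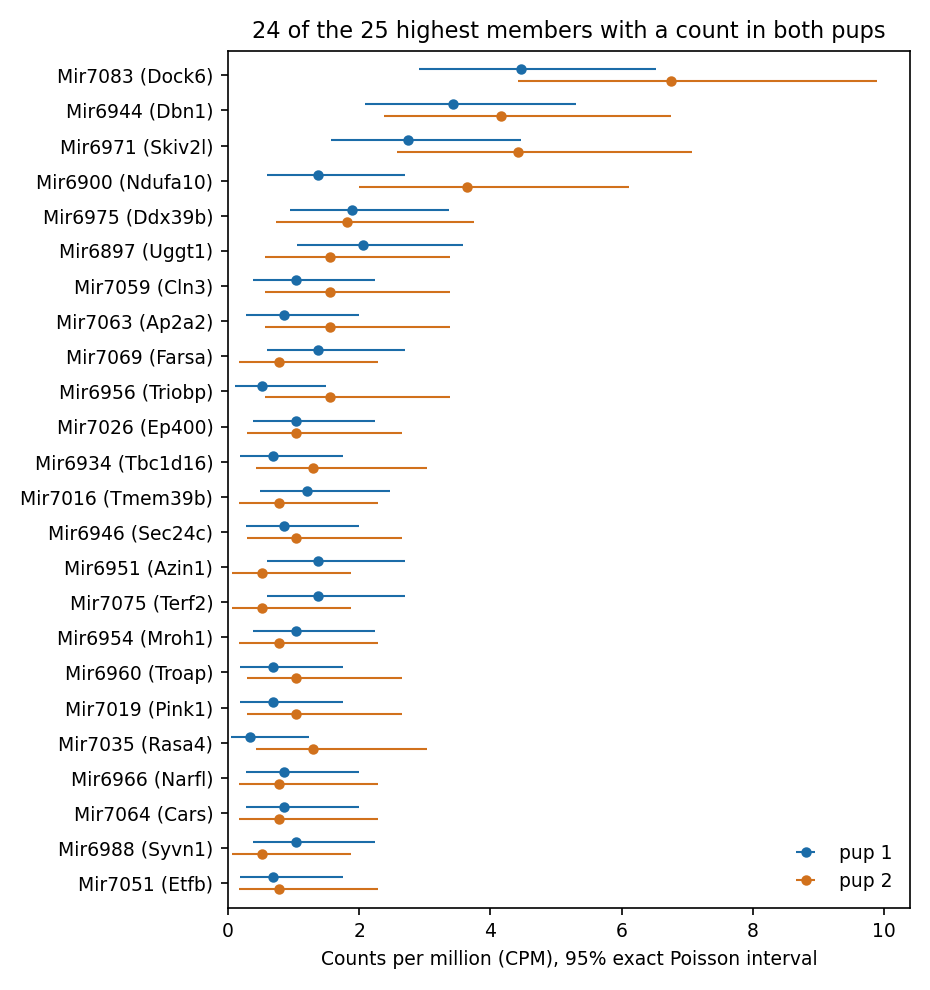
Level in CPM (horizontal) of 24 of the 25 highest members with a count in both pups, by pup, with 95% exact Poisson intervals of the counts and the host gene in parentheses. Mir7083, Mir6944 and Mir6971 have the highest points in both pups, with intervals that overlap those of some lower members. The intervals of both pups overlap in every member shown.

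Of these 25 members, 23 had the 3′ end alone at the intron end, 7 lay in introns of at most 150 bases and 23 in introns between coding exons. They held 353 of the 623 member counts of both pups (56.7%), and the 5 highest held 25.8%. Level showed no simple order with intron length. Members in introns of up to 150 bases summed to 22.3 ± 1.20 CPM over 60 genes, those in introns of more than 150 and up to 1000 bases to 20.9 ± 0.219 over 65, and those in longer introns to 21.3 ± 3.39 over 52. Counts in both pups were found for 41.7%, 35.4% and 34.6% of these. Members with counts in both pups had a median intron of 303 bases and a median hairpin G and C content of 60.3% (57 with sequence). In members at 0 in both pups these were 540 bases and 56.8% (49 with sequence). These medians describe sparse counts and were not tested.

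The pups were compared by an exact two-sided binomial test of both counts, across the 324 genes whose mean count reached 10, with Benjamini-Hochberg adjustment. The test sets 1 library against 1 other and no condition against another. With a background of 33.6% of genes called, 0 of the 4 members tested passed 0.05, and 1 had an unadjusted p under it. That was Mir6900, with a log2 ratio of pup 2 over pup 1 of 1.35 (95% interval 0.03 to 2.85, unadjusted p = 0.0293, adjusted p = 0.0828, exact binomial test). The log2 ratios of Mir7083, Mir6971 and Mir6944 were 0.58 (-0.26 to 1.42), 0.66 (-0.41 to 1.75) and 0.27 (-0.79 to 1.28). The exact test of edgeR called 0 of 4, with 1 unadjusted p under 0.05, but its dispersion came from the same 2 libraries, so it is no independent check. The intervals of all 4 reach beyond a log2 ratio of 1, so a difference of that size is not excluded in any of them. The other 174 members had too few counts for the test. The counting intervals of the pups overlapped in all 178, but at the few counts of most members they could hardly fail to. Even the 0 and 4 counts of Mir6958 gave intervals that overlap, up to 0.633 CPM in pup 1 and from 0.283 CPM in pup 2. The overlap is therefore no sign that the pups agree.

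Earlier-numbered mouse microRNAs known as mirtrons served as a comparison: Mir702, Mir877, Mir1224, Mir1981, Mir1982 and Mir3102. Mir1981 in Marc2 had 348 and 200 counts (55.8 ± 5.43 CPM), Mir3102 in Arhgef17 223 and 129 (35.9 ± 3.32) and Mir877 in Abcf1 169 and 134 (31.9 ± 4.14). Each of these 3 was above Mir7083, the highest member, by more than the SD of either. Mir702 in Plod3 had 8.27 ± 0.669 CPM and Mir1982 in Oaz1 1.89 ± 0.473, and Mir1224 in Vwa5b2 had 1 count in pup 1 and 0 in pup 2. Both hairpin ends lay at intron ends in 5 of the 6, Mir702 being the exception, and their introns had a median of 85 bases. Together the 6 genes held 133.9 ± 5.87 CPM, more than the 65.1 ± 4.70 CPM of all 178 members. Only 4 members were above Mir1982, the lowest of the list with counts in both pups. The list does not hold every other gene with both ends at intron ends. Of all 8 such genes, 5 (62.5%) had counts in both pups. Mir3547 in Baiap3, outside the list, had 8 and 2 counts and 0.946 ± 0.602 CPM, the level of Mir6951 and Mir7075. Gm24589 and Gm27471, also outside it, had 0 in both pups. By place, most members are closer to the 29 other genes with the 3′ end alone at the intron end. Mir702 of the list is among these 29. Its hairpin and that of Mir3062 begin upstream of the donor, so neither has a tail. Of the 29 genes, 51.7% had counts in both pups, with a median of 0.949 CPM over those so detected. The members of that place had 38.0% and 0.603 CPM.

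No read was listed on the strand opposite to any of the 178 members in either pup.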

How the data were processed

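Kidney microRNA libraries of 2 newborn pups were analysed. The authors deposited raw whole-number counts of reads on each gene, in 3 columns without a header. Assembly mm10 and annotation M4 are named per the deposited notes. The aligner was not given in the sources used here, nor was the trimming. Strands were read from the values: columns 2 and 3 of the counts sum to column 1, and column 2, used here as the strand of the gene, held 98.0% of it in both pups. Rows naming no gene stayed out: multimapping reads were 30.3% of 10014956 reads in pup 1 and 31.0% of 6700198 in pup 2, unmapped reads 8.52% and 8.69%, and reads on no listed gene 2.91% and 2.92%.

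Identifiers were matched to GENCODE M21, on the same assembly (1894 of 1973). Introns of same-strand hosts came from that release, leaving out hosts that are themselves small RNA or TEC genes. RefSeq hairpins matched 161 of 178 members by symbol and mature arms 163, and those of chromosome 18 are not printed. Folding used RNAfold 2.7.2. The pups were compared with an exact binomial test given effective library sizes by TMM (edgeR 4.0.16, R 4.3.3). A trial on simulated Poisson counts with library totals held counting error alone, so it says nothing about other variation between pups. DESeq2 1.42.0 size factors were an alternative. Log2 ratios use a prior count of 0.5. The members named are the 25 with the highest mean CPM among those with a count in both pups. Any that passed the test would have been added, and 1 of the 25 is not reported here. Others were named after their values were seen. The members and lists were chosen with earlier results of these data known. P-values measure counting error between the libraries of 2 pups, not variation among animals.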

Additional observations from a re-analysis of the deposited data

How the results depend on the processing

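Detection of the members depended on the limit. The 67 members with a count in both pups became 23 with at least 3 counts in each pup and 8 with at least 1 CPM in each. Counting both strands or leaving out shared hairpins gave 67 by construction, since no member had reads on the opposite strand and none of the 3 with shared bases was among the 67. With 1 pup alone, between 87 and 107 members had a count. Members with both ends at intron ends numbered 14 to 18 under other tolerances and transcript sets, against 15. Members in short introns numbered 43 at a limit of 100 bases and 73 at 250, against 60. The share of counts moved by less than 1 SD, and 0 members were called between the pups in every alternative. The levels of the 25 named members stayed within 1 SD under both other scalings. Leaving out a pup cannot move a mean of 2 by 1 SD, so that check says nothing about stability. No paired analysis was possible because the pups form 1 group. At this depth 54 members rest on 1 or 2 counts in all.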

Other observations

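Beyond the members, 37 matched microRNA genes have the 3′ end of the hairpin within 5 bases of an acceptor, and 20 of them (54.1%) had counts in both pups. The highest was Mir382, in an intron of the noncoding gene Mirg of the Dlk1-Dio3 region, with 1837 and 1220 counts (316 ± 1.54 CPM). Mir3064 in Ddx5 had 22 and 15 counts, Mir3076 in Tkt 23 and 12 and Mir3097 in Rgs12 12 and 13. These 3 hairpins also follow long tails of 642 to 903 bases.

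Seeds of the members were set beside those of the 25 most abundant microRNA genes, 24 of which have mature sequences in the RefSeq table. The seed CUGUUCU of mmu-miR-6932-3p and mmu-miR-7039-3p is also that of mmu-miR-26b-3p. No other of the 312 member arms shared a seed with these genes. Abundance here is that of the hairpin, so the level of mmu-miR-26b-3p itself is not known. Mir6932 had 0 and 1 counts, and Mir7039 had 1 and 0. In all, 42 mature arms of other genes in the tables carry the seed of some member.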
